A study of Mus musculus with 10 samples.

Results

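Of 21631 protein-coding genes on the autosomes and X chromosome, 14 (0.0647%) had an ATAC-seq peak within 1 kb of a gene end in all 4 WT peak lists and in none of the 6 Het and Homo lists. The 8 genes described here, Cklf, Nans, Anks3, Capn5, Atp6v1h, Tigd3, Maip1 and Tyw5, were chosen on that presence pattern. The other 6 genes with the same pattern were Ago2, Tcea3, Mrpl1, Rad18, Irf2 and Cln6. Maip1 and Tyw5 overlap at their starts and share the same rows, so the 8 genes stand for 7 regions. A gene-end peak was a row of a list that overlapped the 1000 bp on either side of the first or last coordinate of a gene. Because the pattern chose the genes, it is described without a test. At 7 of the 8 genes (6 regions) no Het or Homo row overlapped the WT rows. At Anks3 the same region was also called in 4 of the 6 Het and Homo lists, in rows that ended 8 to 260 bp outside the window. With all lists scaled to the shallowest depth, or shortened to the same number of rows, 0 of the 8 genes kept a peak in all 4 WT lists, so the pattern does not hold for any of them under those settings. Depth there was the background of each list, and the result depends on that scale. At the shallowest library, Homo 2, 13 of 28 WT rows reached the calling threshold by background. Scaled by the pileup at regions that all lists share, 27 of 28 did, with all 4 WT rows in 6 of the 7 regions.

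The libraries came from liver tumours of FVB mice, stored frozen. All mice carried LAP-tta, an activator driven by a liver promoter, and TRE-MYC, a MYC transgene that this activator switches on when doxycycline is withdrawn. WT tumours (n = 4, about 55 days old) were Arid1a fl/fl without Cre. Het tumours (n = 3, about 70 days) were Arid1a fl/+ with Alb-cre, and Homo tumours (n = 3, about 100 days) were Arid1a fl/fl with Alb-cre, a Cre driven by the albumin promoter of hepatocytes. Tumours were taken when the animals died. Age and Cre move with genotype, and their parts in any difference between WT and the other tumours cannot be told apart from that of Arid1a. Whether the libraries of a group are from separate mice is not stated in the labels, and the p-values below therefore measure only the spread between libraries, which may be technical. Arid1a itself had a gene-end peak in 0 WT, 0 Het and 1 Homo list, and a gene-end peak does not check the deletion.

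ATAC-seq uses a transposase that inserts sequencing adapters into DNA that is not packed around nucleosomes, and active promoters are common sites of such insertions. Arid1a encodes a DNA-binding subunit of the BAF (SWI/SNF) complex, which moves and ejects nucleosomes with the energy of ATP. Peak calling turns a continuous signal into presence or absence, and a site close to the threshold can be listed in 1 library and missing from another at the same signal. The genes do not belong to 1 pathway. Cklf encodes a chemokine-like factor and Nans the synthase of sialic acid. Anks3 encodes an ankyrin-repeat protein of a ciliary kinase module, and Capn5 a calcium-dependent protease. Atp6v1h encodes a subunit of the proton pump that acidifies lysosomes. Tigd3 derives from a DNA transposase, Maip1 acts in the maturation of the mitochondrial calcium uniporter, and Tyw5 hydroxylates the modified tRNA base wybutosine.

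RefSeq sequences of the 250 bases before the transcription start (table of the GRCm38.p6 assembly, the same primary coordinates as mm10) matched 5 of the 8 genes by symbol. Nans, Capn5 and Atp6v1h had no entry. The promoters shown are 4 that WT rows overlap, and they differ in base composition. At Cklf the rows reach into the stretch from summits just downstream of it. At Tyw5 the WT 2 row lies outside the stretch and WT 3 alone has its summit in it. Capitals mark exact matches, on either strand, to the GC box GGGCGG or to CCAAT. Each sequence runs 5′ to 3′ on the strand of its gene and ends 1 base before the transcription start.
Cklf, chr8:104250611-104250860, plus strand: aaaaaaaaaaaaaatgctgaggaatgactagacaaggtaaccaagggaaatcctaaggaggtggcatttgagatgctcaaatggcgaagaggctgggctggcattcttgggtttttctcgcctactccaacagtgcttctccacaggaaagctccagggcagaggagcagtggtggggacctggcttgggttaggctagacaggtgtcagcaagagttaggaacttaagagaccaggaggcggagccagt
Anks3, chr16:4964238-4964487, minus strand: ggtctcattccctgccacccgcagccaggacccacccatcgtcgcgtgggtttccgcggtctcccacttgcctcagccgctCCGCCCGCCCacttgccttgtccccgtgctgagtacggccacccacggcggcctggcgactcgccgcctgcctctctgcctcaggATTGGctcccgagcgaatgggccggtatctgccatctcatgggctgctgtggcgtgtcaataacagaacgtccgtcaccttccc
Tigd3, chr19:5894129-5894378, minus strand: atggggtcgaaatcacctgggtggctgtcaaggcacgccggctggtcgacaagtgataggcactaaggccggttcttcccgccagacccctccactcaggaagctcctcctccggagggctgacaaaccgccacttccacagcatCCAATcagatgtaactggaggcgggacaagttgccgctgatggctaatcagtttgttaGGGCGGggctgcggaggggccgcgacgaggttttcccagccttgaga
Tyw5, chr1:57406675-57406924, minus strand: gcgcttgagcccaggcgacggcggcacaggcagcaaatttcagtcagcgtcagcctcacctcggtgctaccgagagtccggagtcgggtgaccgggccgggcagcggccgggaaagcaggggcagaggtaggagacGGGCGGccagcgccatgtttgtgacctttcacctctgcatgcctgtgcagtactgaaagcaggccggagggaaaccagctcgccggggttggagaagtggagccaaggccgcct

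The Cklf promoter was 50.4% G and C, held 3 CpG dinucleotides and had a ratio of observed to expected CpG of 0.204, with a match to none of the 10 motifs searched. That ratio lay at the 4.24th percentile of the 5260 promoters of genes called at a gene end by every WT list (median 0.810). The other 4 promoters had ratios of 0.659 (Tigd3), 0.660 (Maip1), 0.749 (Tyw5) and 0.830 (Anks3). Among the same 5260 promoters they lay at the 25.7th, 25.9th, 39.1st and 53.4th percentiles. Over 21045 promoters of protein-coding genes the median ratio was 0.537, and Cklf lay at the 23.3rd percentile of these. A GC box stood in 3 of the 5 promoters, Anks3, Tigd3 and Tyw5, and in 43.1% of all promoters of this length and 65.8% of those with a peak in all WT lists. The 2 matches in the Anks3 promoter overlap and read on the opposite strand, at bases -169 to -164 and -165 to -160 from the transcription start. CCAAT stood in Anks3 (-84 to -80, opposite strand) and Tigd3 (-105 to -101), in 35.6% of all promoters and in 38.9% of those with a peak in all WT lists. The E-box CACGTG, the core sequence that MYC binds, stood in the Maip1 promoter alone (-150 to -145), upstream of all 4 WT rows. It stood in 6.70% of all promoters and in 9.33% of those with a peak in all WT lists. The other 7 motifs, searched on both strands, had no match in the 5 promoters. Of all promoters, 11.7% held the TATA box TATAAA and 9.08% the ETS motif CCGGAAG, against 4.98% and 16.7% of those with a peak in all WT lists. The NRF1 motif GCGCATGCG was found in 1.94% and the YY1 motif AAGATGGCG in 0.722%, against 4.51% and 1.75%. The ZNF143 motif ACTACAATT was found in 0.480%, the CRE motif TGACGTCA in 1.94% and the AP-1 motif TGAGTCA in 4.09%, against 0.837%, 2.97% and 2.24%.

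Each list holds the authors' own values for each row. The fold divides the tag pileup at the summit by the local background, each raised by 1. The −log10 p measures how far the pileup stands above that background, and the percentile gives the place of a row by −log10 p in its own list, with 100 the strongest. These values describe rows within a list. They were not tested between lists, whose length and depth differ.

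**Figure D1:**
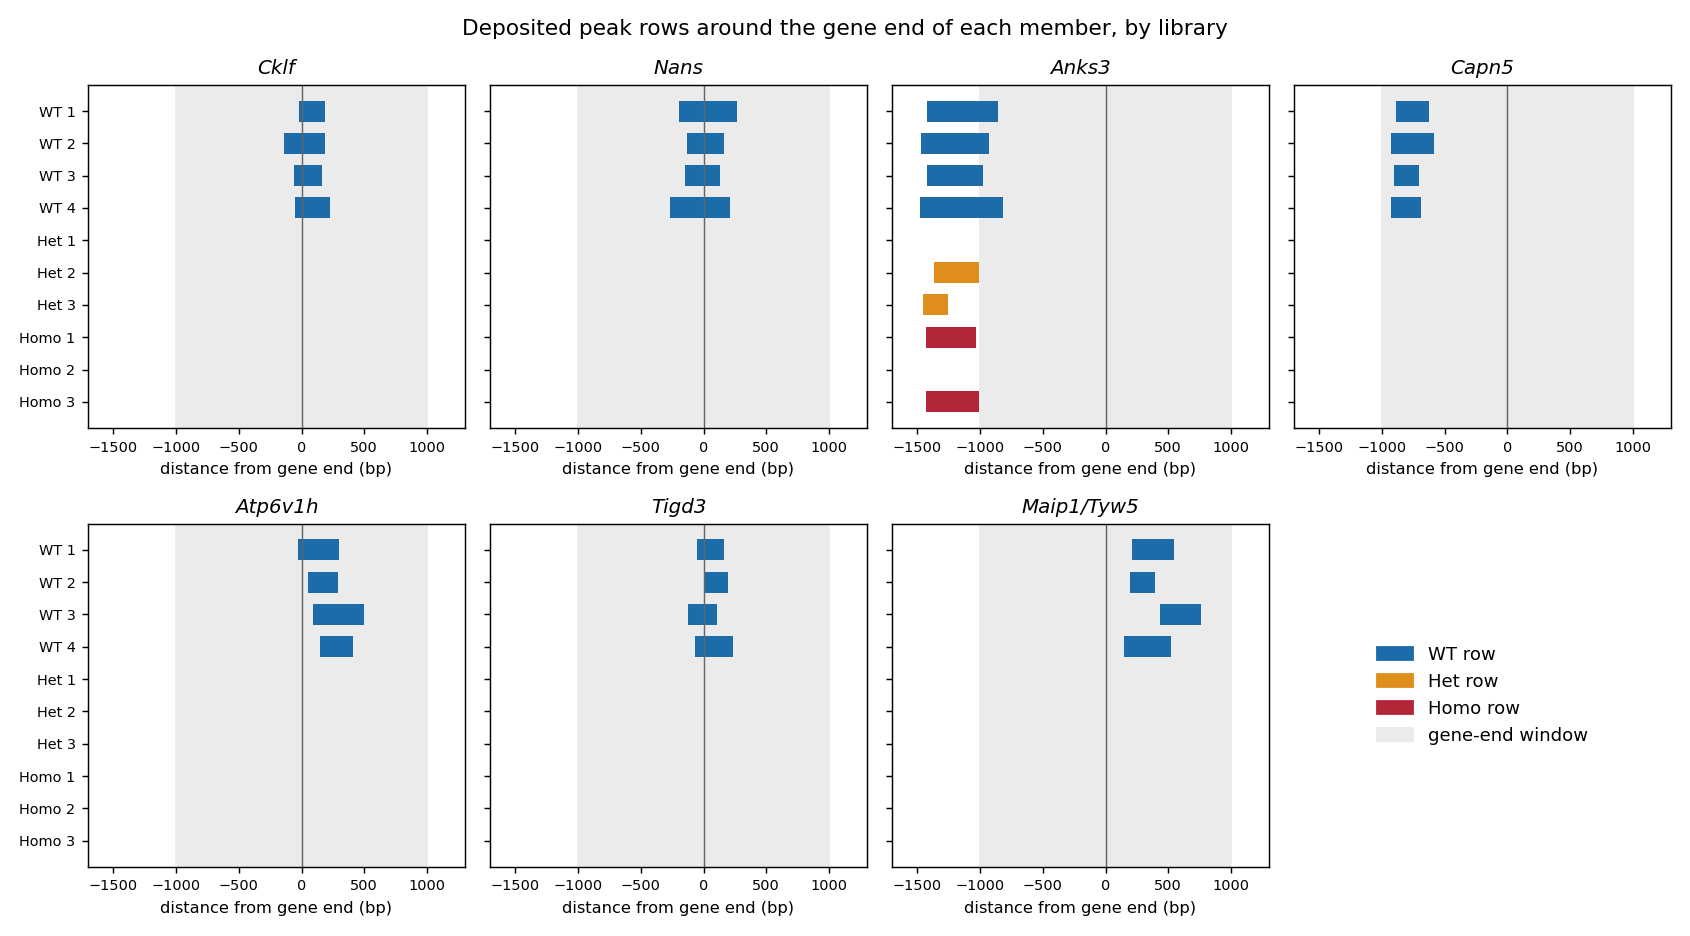
Position of every deposited row around the gene end nearest to the WT peak, as distance from that gene end in bp, for each of the 10 libraries. WT rows lie inside the shaded 1-kb window in all 7 regions, in part at Anks3, where 4 Het and Homo rows lie just outside it.

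At Cklf (chromosome 8, 104250861 to 104266010, plus strand) the WT rows lay across the transcription start. They ran from 104250841 to 104251050 in WT 1, 104250724 to 104251050 in WT 2, 104250803 to 104251027 in WT 3 and 104250812 to 104251087 in WT 4, with 187 bp in common. Summits stood 18, 36, 44 and 51 bp downstream of the start. Folds were 4.49, 7.41, 8.10 and 7.85, with pileups of 14, 19, 16 and 26 tags and percentiles of 2.28, 61.1, 76.9 and 81.6. The row of WT 1 was thus among the weakest of its list, and the other 3 stood above the middle of theirs. Cklf had the highest median percentile of the 7 regions in WT, 69.0. No list had another row inside the gene or within 10 kb of it, and the nearest row of a Het or Homo list was 144527 bp away, in Homo 3. Cmtm2a, a neighbour of Cklf and a member of the same family, and Tk2 on the other side had no gene-end peak in any list.

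At Nans (chromosome 4, 46489329 to 46503438) the rows lay across the lower gene end and shared 263 bp. Their widths were 461, 295, 277 and 474 bp in WT 1 to WT 4. Folds were 5.97, 7.38, 6.70 and 5.97, and percentiles were 28.5, 53.9, 49.3 and 25.8. These 4 rows were the closest to each other in rank of all 7 regions. Nans was also the 1 gene with a second region within 10 kb that all WT lists called, inside the adjacent gene Trim14 (46507051 to 46507622), 17458 bp from the gene-end rows. This second region had folds of 7.83, 7.26, 6.72 and 7.89 in WT 1 to WT 4, 5.56 in Het 3 and 8.10 in Homo 3, and it too was missing from the other 4 Het and Homo lists. The gene-end peak of Anp32b, which adjoins Nans on the other side, was called in all 10 lists.

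Anks3 (chromosome 16, 4941415 to 4965537, minus strand) departs from its pattern. Its transcription start, 4964237, lies 1300 bp inside the upper gene end, so the WT rows reached the window only with their upper edges. These rows were 568, 540, 444 and 666 bp wide, with folds of 5.92, 8.43, 6.45 and 5.39 and percentiles of 45.9, 89.6, 48.9 and 23.3 in WT 1 to WT 4. Their summits lay at positions -56, -170, 1 and -84 from the transcription start, where negative is upstream. The same site was called in Het 2 (4964167 to 4964529, fold 6.61, percentile 61.3), Het 3 (4964078 to 4964277, fold 5.83, percentile 46.6), Homo 1 (4964102 to 4964501, fold 5.46, percentile 24.7) and Homo 3 (4964102 to 4964529, fold 7.56, percentile 59.5). These rows ended 8, 260, 36 and 8 bp outside the window. Het 1 and Homo 2 had no row there. With a window of 2500 bp, a window around the transcription start, or any overlap with a WT row, Anks3 was therefore present in 4 of 4 WT, 2 of 3 Het and 2 of 3 Homo lists. A start more than 1000 bp from both gene ends was found for 1708 of 17274 genes with an entry (9.89%). The WT rows also overlap 4930451G09Rik, a noncoding transcript (4964288 to 4978963).

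At Capn5 (chromosome 7, 98121559 to 98178946) all 4 rows lay inside the gene, from -933 to -586 bp of its upper end, and overlapped the long noncoding RNA Gm16938 (98177194 to 98184804). Folds were 7.83, 8.21, 5 and 5.41, pileups were 25, 22, 10 and 16 tags, and percentiles were 72.1, 79.0, 4.75 and 20.6 in WT 1 to WT 4. WT 1 and WT 2 were high in their lists, and WT 3 and WT 4 were low. WT 1 had 1 further row in the gene body (98141328 to 98141539, fold 5.59). With a window of 500 bp neither Capn5 nor Anks3 had a gene-end peak in any list.

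At Atp6v1h (chromosome 1, 5082978 to 5163213) the rows shared 142 bp just inside the lower gene end. Folds were 6.12, 7.87, 5.56 and 6.40, and percentiles were 24.1, 56.9, 15.0 and 32.6 in WT 1 to WT 4. All rows but that of WT 2 stood in the lower part of their lists. No other protein-coding gene lies within 10 kb, and the nearest row of a Het or Homo list was 224743 bp away.

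At Tigd3 (chromosome 19, 5891138 to 5894128, minus strand) the summits stood at -77, -61, -15 and -78 bp from the transcription start in WT 1 to WT 4. Folds were 5.78, 4.26, 7.63 and 6.06, and percentiles were 20.003, 0.0958, 74.4 and 27.8. The WT 2 row, with 10 tags and the smallest width in the lists, 200 bp, ranked 8348 of 8355. Tigd3 thus passed the rule through 1 row at the very bottom of a list. The nearest row of a Het or Homo list was 18030 bp away, at the upper gene end of Dpf2. Dpf2 encodes another BAF subunit and had a gene-end peak in 4 WT, 2 Het and 2 Homo lists.

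Maip1 (chromosome 1, 57406266 to 57417953, plus strand) and Tyw5 (57388235 to 57406674, minus strand) start within each other, and the rows spanned 57406416 to 57407029. Folds were 5.84, 6.72, 7.79 and 4.78, and percentiles were 23.4, 37.0, 78.9 and 3.04 in WT 1 to WT 4. The row of WT 3 (57406699 to 57407029) lay upstream of the Tyw5 start and did not overlap that of WT 2 (57406462 to 57406661), from which 37 bp separated it. No base was therefore common to all 4 WT rows, and presence in 4 of 4 lists rests on the shared window. The same held for Ago2 and Tcea3 among the other 6 genes. The nearest row of a Het or Homo list was 28665 bp away.

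Over the 7 regions the 28 WT rows had folds of 4.26 to 8.43 (median 6.26), widths of 200 to 666 bp (median 299 bp), pileups of 10 to 27 tags and percentiles of 0.0958 to 89.6 (median 34.8). Median percentiles by library were 24.1 in WT 1, 56.9 in WT 2, 49.3 in WT 3 and 25.8 in WT 4. In no region did all 4 rows stand above the middle of their lists. Gene-end peaks in all 4 WT lists were found at 5067 genes (23.4% of all), of which the 14 made up 0.276%. Taken by the number of Het and Homo lists that also called them, the median WT percentile was 30.2 for the 14 genes called in 0 (quartiles 19.3 to 43.4), 40.3 for 326 genes called in 1 (27.1 to 54.5), 62.4 for 4235 called in 2 to 5 (46.3 to 76.4) and 80.6 for 492 called in all 6 (68.3 to 88.9). Median widths in the same order were 257.5, 338, 437 and 520.75 bp. Each gene entered with its strongest gene-end row by −log10 p in each WT list, and then with the median of its 4 lists. A gene with several gene-end rows thus counts by the strongest. These values come from the lists that define the classes and are a description.

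**Figure D2:**
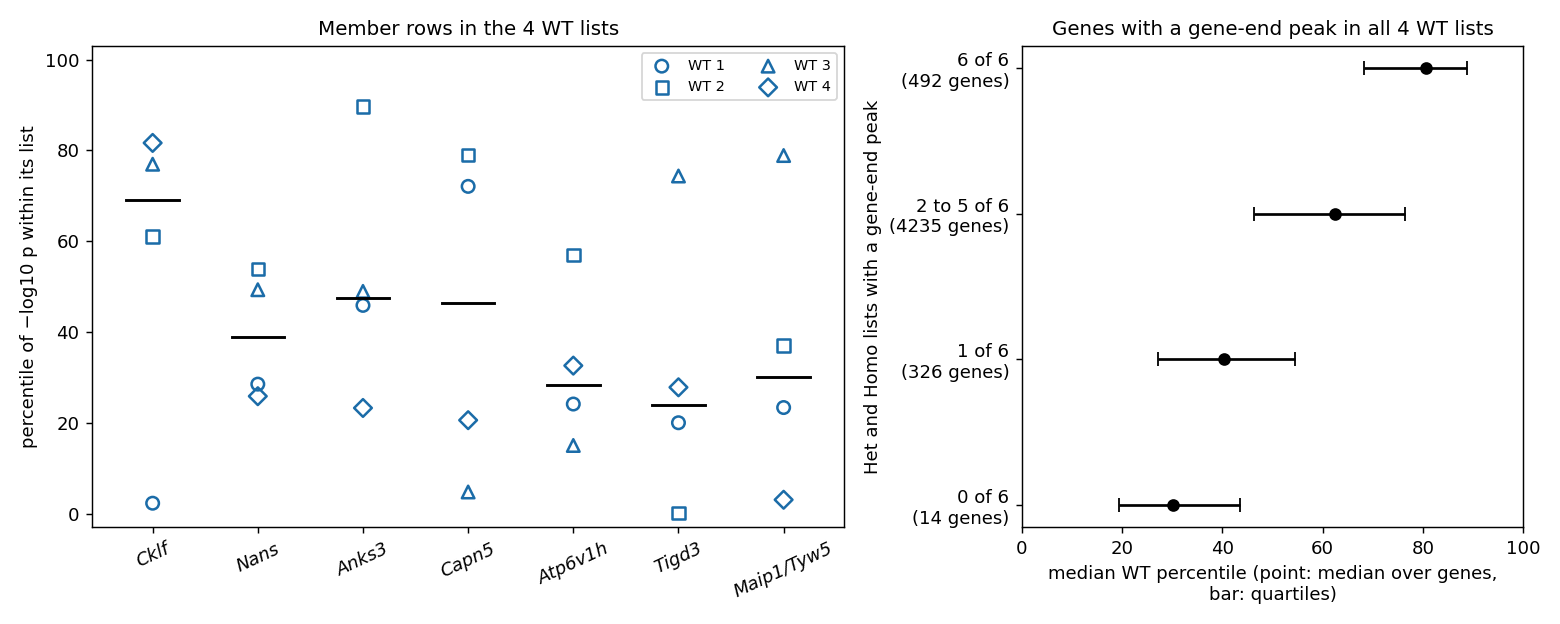
Left, percentile of −log10 p of each region's row in each WT list (bars: medians of the 4 lists). Right, median WT percentile of the genes called at a gene end by every WT list, by how many of the 6 Het and Homo lists had one, rising from 30.2 (0 of 6) to 80.6 (6 of 6).

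The count of 14 turned on 1 library. Just outside the rule stood 326 genes called at a gene end by every WT list and by exactly 1 other list, and in 314 of them that list was Homo 3. Het 1 accounted for 7, Homo 1 for 4 and Het 2 for 1. Without Homo 3, 328 genes would have met the rule in place of 14. Without WT 1, WT 2, WT 3 or WT 4 the count was 22, 26, 40 or 23. The strongest genes just outside, by median WT percentile, were Mid1 (93.8), Tada1 (91.1), Diablo (85.8), 1700030J22Rik (81.1) and Dyrk1b (79.9), all called in Homo 3. The reverse pattern, a gene-end peak in all 6 Het and Homo lists and in no WT list, was met by 0 genes (0%), and by 1 gene without WT 4 or without Homo 2.

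The lists held 6731 to 9526 regions in WT, 2583 to 5796 in Het, and 3863, 1748 and 9587 in Homo 1, Homo 2 and Homo 3. Depth, taken as the background in tags per 200 bp recovered from the deposited values, averaged 1.32 ± 0.334 over the 4 WT libraries (SD). It was 0.696 ± 0.0415 over the 3 Het and 0.995 ± 0.576 over the 3 Homo libraries. WT exceeded the other 6 libraries by 0.470, which did not pass a two-sided exact permutation test over 210 splits (p = 0.0905). Without Homo 3, the deepest of the 6 at 1.61, the difference was 0.623 (exact permutation p = 0.00794). Homo 3 was the only one of the 6 within the WT range of 0.985 to 1.745, and the next deepest was Homo 1 at 0.914. Leaving Homo 3 out thus separates the groups fully, and this p is the smallest that the test can then give. Hepatocyte marker genes had a gene-end peak in at least 1 list for 8 of 12 genes, with 0 to 7 per library. Only Foxa3 and Cebpa had one in all WT lists (2 of 12, 16.7%, against 23.4% of all genes). Of the markers of other cells, 0 of 5 endothelial, 0 of 5 stellate and fibroblast, 1 of 5 macrophage, 0 of 5 lymphocyte and neutrophil, 1 of 3 cholangiocyte and 1 of 4 erythroid genes had one in any list. The share of all genes with a peak in any list is not given here, so these counts do not identify the cells. In bulk tumour, fewer cells with an open site and less opening per cell cannot be told apart.

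The smallest pileup that could reach a −log10 p of 5 was calculated from the depth of each library, not read from the rows. It was 7 to 10 tags in the WT libraries, 6 to 7 in Het, and 7, 5 and 9 in Homo 1, Homo 2 and Homo 3. Pileup and background of each of the 28 WT rows were therefore scaled to the depth of each other library, and the −log10 p that would result was set against 5, below which no list has a row. Homo 3 is deeper than WT 2, WT 3 and WT 4 (1.42, 1.63 and 1.15 times) and has 0.921 of the depth of WT 1, so rows already listed in WT stay above the threshold at its depth almost by construction. All 28 did (median 12.7, lowest 7.06), among them the rows of Anks3, whose site Homo 3 does list. At the depth of Homo 1 it was 27 rows, of Het 1 25, of Het 2 24 and of Het 3 25. At the depth of Homo 2 it was 13 of 28, and for no region did all 4 WT rows reach it. Scaled instead by the pileup at the 647 regions that all 10 lists share, a choice made after seeing the data, 27 of 28 rows reached it in Homo 2. The 2 scales thus differ on whether these sites were detectable in Homo 2. For Homo 1 and Homo 3 both gave 27 and 28 rows, and for Het 1, Het 2 and Het 3 the second scale gave 28, 28 and 27.

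**Figure D3:**
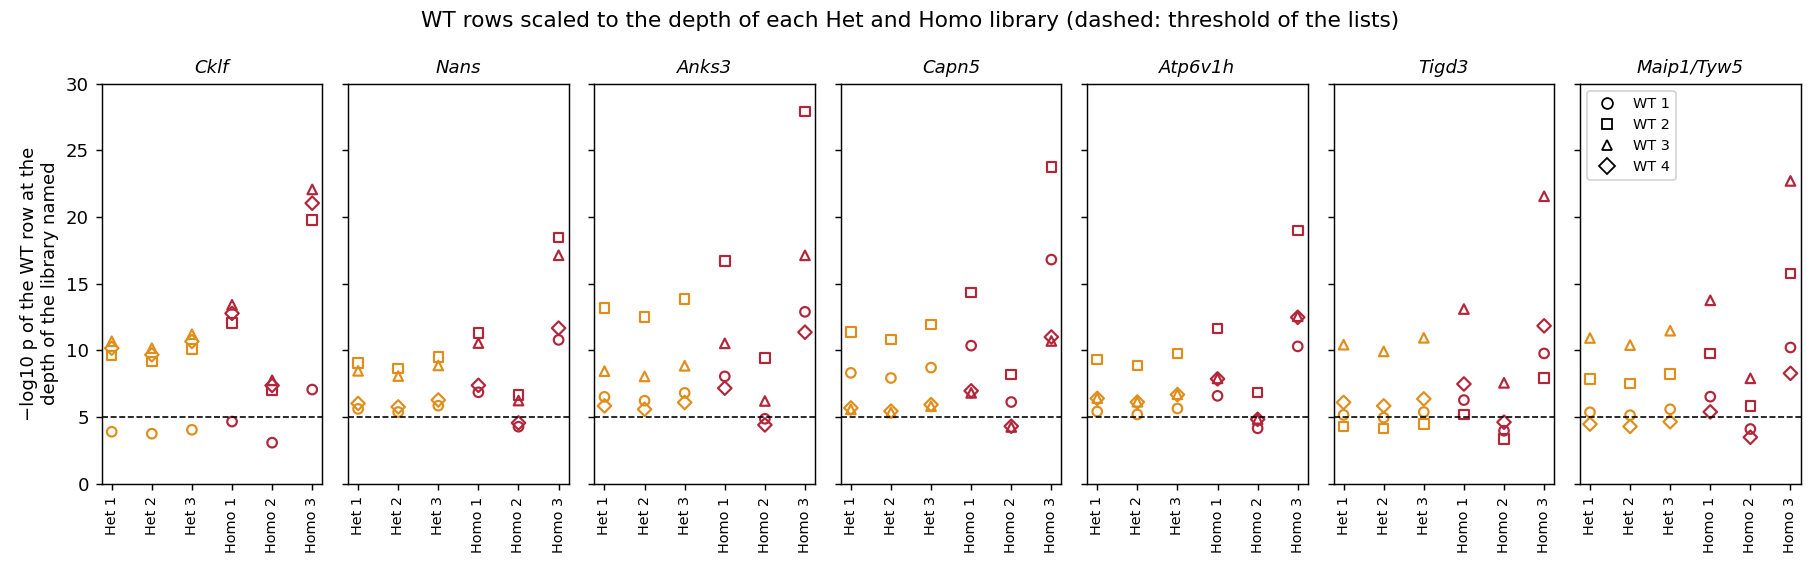
Each point is the −log10 p that 1 WT row would have at the depth of the Het or Homo library named on the horizontal axis (symbols: WT library, dashed line: threshold of 5). All 28 points for Homo 3 lie above the line, against 13 of 28 for Homo 2.

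The regions differed in how far this went. Nans, Anks3, Capn5 and Atp6v1h had all 4 WT rows at the threshold for each Het library and for Homo 1. At the depth of the Het libraries, Nans ranged from 5.37 to 9.49 and Atp6v1h from 5.19 to 9.76. At Cklf the weak row of WT 1 fell short in every library but Homo 3, while the other 3 rows reached at least 7.01 even at the depth of Homo 2. At Tigd3 the WT 2 row fell short in all 3 Het libraries and in Homo 2, the WT 1 row in Het 2 (4.95) and Homo 2 (3.97), and the WT 4 row in Homo 2 (4.61). At Maip1 and Tyw5 the WT 4 row fell short in all 3 Het libraries and in Homo 2, and the WT 1 row in Homo 2 (4.10). At the depth of Homo 2, 2 rows of Nans, Anks3 and Capn5 each and 3 of Atp6v1h also fell short.

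The same scaling was made for all genes. Of the 5067 genes with a peak in all WT lists, those with all 4 WT rows at the threshold for a library were listed in it in 81.9% (Het 1), 71.4% (Het 2), 38.3% (Het 3), 52.5% (Homo 1), 30.6% (Homo 2) and 98.7% (Homo 3) of cases. Homo 3 missed 67 of the 5067. These genes were required to be called in all WT lists, and the part of depth in the absences was not tested. The parts of age, Cre and Arid1a genotype cannot be told apart.

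Regions on either side served as local controls. The nearest region called in all WT lists was taken on each side of the 7 regions, 14 in all, at distances of 17458 to 8362096 bp. All 14 were called in Homo 3, 3 of them in all 6 Het and Homo lists (21.4%), and none was missing from all 6. The median was 4 of 6 lists. Over all 5179 regions called in all WT lists the median was also 4, 98.3% were called in Homo 3 and 12.5% in all 6, and 16 were in none. Around Atp6v1h, the region at a gene end of Tcea1 was called in all 10 lists and that of Rb1cc1 in all but Het 3. Around Anks3, the region near gene ends of both Rogdi and Glyr1 was missing from Het 3, and that of Ubald1 from Het 2, Homo 1 and Homo 2. Got2, the neighbour of Cklf at the greatest distance, was called in Het 1 and Homo 3. Each neighbour was itself required to be in all WT lists, as the 8 genes were, but not to be absent elsewhere.

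**Figure D4:**
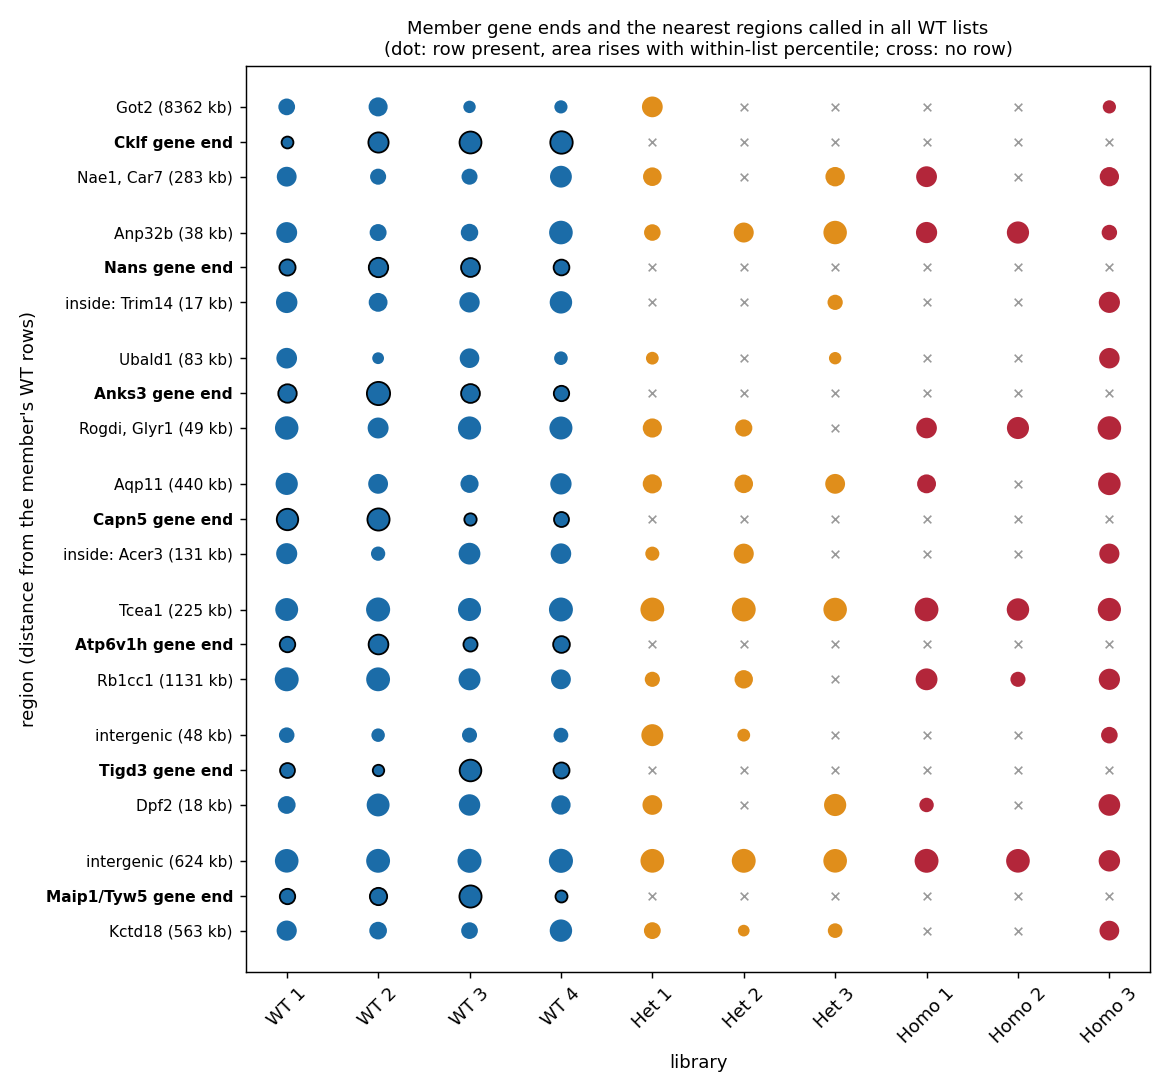
Presence in the 10 libraries of each region within the gene-end window (bold) and of the nearest region on either side called in all WT lists (distance in kb), with dot area rising with the within-list percentile and a cross for no row. All 14 neighbours have a dot in Homo 3, and the crosses of Anks3 stand for rows that lie outside its window in 4 lists.

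None of the genes listed as relatives or partners of the 8 had the same pattern, which 0.0647% of all genes had. In 8 lists of related genes, 95 genes in all, 35 were called at a gene end by every WT list (36.8%, against 23.4% of all genes), and each of the 35 also by at least 1 of the other 6. Of all 5067 genes called by every WT list, only 0.276% were called by none of the other 6, so this count does not set the related genes apart. Of the 24 genes for other V-ATPase subunits and accessory proteins, which form the proton pump together with Atp6v1h, 7 were called in all WT lists. Per library 14, 10, 10 and 14 of the 24 were called in WT, 7, 8 and 2 in Het and 2, 2 and 17 in Homo. Homo 3 (depth 1.61) held the most, and WT 1, deeper at 1.745, held 14. The part of depth in these counts was not tested, and shares of all genes per library are not given here. Of 15 other sialic acid genes, 7 were called in all WT lists. Cmas, which activates sialic acid downstream of Nans, was also called in Homo 3 alone of the 6, and the sialyltransferase St3gal3 in all 10 lists. Of 8 partners and relatives of Anks3, 4 were called in all WT lists, Anks1 with Homo 3 as its only other list. Of 14 calpain genes 3 were, among them Capn15 in all 10 lists. The mitochondrial protease and uniporter genes around Maip1 were called in all WT lists in 9 of 13 cases, and the wybutosine genes around Tyw5 in 0 of 5. WT 1 to WT 4 called 5, 4, 0 and 4 of these 5 genes. Het 1 to Het 3 called 1, 0 and 0, and Homo 1 to Homo 3 called 1, 0 and 5. Shares of all genes per library are not given beside these counts either. Of the 9 CMTM genes related to Cklf, Cmtm7 and Cmtm8 were called in all WT lists, and of the 7 relatives of Tigd3, 3 were.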

How the data were processed

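The authors deposited 1 narrowPeak list per library (10 lists). The submitters' processing notes name Bowtie2, MACS2, deepTools and the mm10 build, with no versions. How peaks were called beyond these names is not stated in the sources used here. Deposited columns hold a score, a fold (a ratio), −log10 p and −log10 q, and all are the authors' values. For 100% of rows, a whole-number pileup and a background were recovered from the deposited fold and −log10 p (tolerance 0.001 in −log10 p). Depth is the smallest background that 10 or more rows of a list share. Read totals are not used here, so depth rests on this recovery, which was tested on simulated data. Gene ends came from the RefSeq table for GRCm38.p6, which has no exons or UTRs. Presence needed an overlap of at least 1 bp. Neighbours had to lie in all WT lists. Python 3.11.15, scipy 1.17.1 and pandas 2.3.3 were used. The members and gene lists were chosen with earlier results of these data known. Named genes were the 8 members, the others meeting the rule, adjacent genes, the 5 strongest genes just outside, and, in related lists, those in all WT and at most 1 other list or in all 10. Cmtm7, Cmtm8, Foxa3 and Cebpa were named after their values were seen. The closing section gives the alternatives: window, thresholds, depth scaling, equal list length, other gene sets and leaving out each library.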

Additional observations from a re-analysis of the deposited data

How the results depend on the processing

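The count of 14 genes became 7 with all lists scaled to the shallowest depth and 4 with lists of equal length (the 1748 strongest rows each), with 0 of the 14 among them in either case, and the reverse count became 1 with equal length. Scaled to the shallowest depth, Cklf remained in 3 WT lists and every other member in 1 or 2. Leaving out 1 library in turn gave 14 to 328 genes and 0 to 1 in the reverse direction. The depth difference then ran from 0.327 without WT 1 (exact permutation p = 0.226) to 0.623 without Homo 3 (exact permutation p = 0.00794, the smallest possible there). Windows of 500 and 2500 bp gave 11 and 15 genes, of which 11 and 13 were among the 14 and 6 and 7 were members. Summits in the window gave 14, with 13 the same and 7 members. A −log10 p of at least 7 gave 13, with 11 the same and 7 members. Noncoding genes added gave 17, with all 14 among them. A −log10 q of at least 5 also gave 14, but only 5 were the same genes and 2 of those were members. A window around transcription starts and any overlap with WT rows, both chosen after seeing the data, gave 10 and 13. Of these, 9 and 13 were among the 14, and 4 and 7 were members. Nans, Capn5 and Atp6v1h had no entry for a transcription start and could not be counted in the first. Scaling WT rows by the pileup of the 647 regions shared by all lists in place of the background, also added, put 27 or 28 of the 28 rows at the threshold in every library, Homo 2 included, against 13 for Homo 2 by background. The cause of that gap was not tested. The labels number the replicates in every group, and the depth difference with the replicate number as a block was 0.441 (exact permutation p = 0.185 over 27 arrangements). WT 4 has no same-numbered Het or Homo library, and this difference equals that without WT 4. The smallest p that the block permutation could give was 0.037. Of 9 same-numbered pairs of libraries 2 correlated above 0.1 in their deviations (range -0.415 to 0.255). Pairs with different numbers are not set beside them, so whether the numbers pair the samples is not settled. Presence in a list, not signal, was available for the Het and Homo libraries at 7 of the 8 genes, and a change of signal below the calling threshold is not detectable here.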
